A study of Homo sapiens with 24 samples.

Results

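The 8 polyamine synthesis genes AMD1, ODC1, SRM, SMS, OAZ1, OAZ2, AZIN1 and SMOX were followed in Huh-7 cells, as the labels call them after a liver cancer cell line. They are 8 of the 15246 genes measured, and were taken by gene symbol with all 13 of their probes, each of which passed the filter on dim probes. The set was chosen because AMD1 was already known to be lower after 3 h of hypoxia, so that difference is given as a description with no test. Each gene is represented by its brightest probe, on a log2 scale after quantile normalization between arrays. The arrays cover 3 stable lines made with lentiviral hairpins: shHIF-1A, against HIF1A, whose protein is stable when oxygen is low and drives hypoxic transcription, at 3 h, 6 h and 12 h in 1% oxygen (3, 2 and 2 arrays); shNDRG3, against NDRG3, at 6 h, 12 h and 24 h (2 arrays each); and shGFP, the control hairpin against GFP, at 3 h, 6 h, 12 h and 24 h (3, 2, 2 and 2 arrays) and in normoxia (2 arrays). Every line carries a hairpin, each knockdown was measured in 1 line, and the labels do not say whether a line is a clone or a pool. All arrays of both knockdown lines are titled as hypoxic, so a difference from shGFP that hypoxia brought out and one the line already had cannot be told apart, and hours of hypoxia cannot be told apart from hours in culture. The series' design text instead places the knockdown lines in normoxia; the titles and descriptions of the arrays were followed, and if the design text were right each difference of a knockdown line from shGFP would also be one between oxygen levels.

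Polyamines are small positively charged metabolites that growing cells need for translation and nucleic acid function. ODC1, ornithine decarboxylase, makes putrescine, and AMD1, S-adenosylmethionine decarboxylase, makes the aminopropyl donor with which SRM, spermidine synthase, and SMS, spermine synthase, extend putrescine to spermidine and spermine. The antizymes OAZ1 and OAZ2 bind ODC1 and send it to the proteasome, AZIN1 is an inactive relative of ODC1 that takes up antizyme, and SMOX, spermine oxidase, turns spermine back into spermidine. Much control of ODC1, AMD1 and the antizymes is exerted on translation and protein turnover, which an array of RNA does not measure.

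Some facts bear on all results. HIF1A itself averaged 2.79-fold lower in shHIF-1A than in shGFP cells (log2 difference -1.48 ± 0.095, adjusted p = 9.94e-12), and NDRG3 averaged 4.54-fold lower in shNDRG3 than in shGFP cells (log2 difference -2.18 ± 0.068, adjusted p = 4.86e-18). Here and below an error beside a difference is its SE, and p-values come from limma, adjusted over all 15246 genes with a threshold of 0.05. Of the hepatocyte markers with a probe, 1 of 8 (ALB) lay above 2 times the array median in any group, against 2 of 4 epithelial, 4 of 5 fibroblast, 2 of 3 endothelial and 2 of 3 blood markers; VIM and KRT8 were the highest in normoxia, and the part of cell identity in the results was not tested. The labels do not say whether replicates were separate cultures, so p-values measure the spread between these arrays, which may be technical. Pairs of replicate arrays correlated at 0.9798 to 0.9973, and the 2 shNDRG3 arrays at 24 h stood furthest apart, with an array weight of 0.205 each. Next came shHIF-1A 3 h replicate 2, with a weight of 0.265 and correlations of 0.9912 and 0.9914 with the other arrays of its group. HIF1A was at 9.67 on that array, against 9.14 and 9.01 on the others of the group. Bulk RNA does not separate fewer cells of a kind from less RNA per cell.

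The 8 genes differed widely in how far they moved. The span from the lowest to the highest of the 11 group means was 6.16-fold for SRM, 4.66-fold for ODC1, 4.65-fold for AMD1 and 2.94-fold for AZIN1. The span was 2.32-fold for OAZ2, 2.13-fold for SMS, 1.73-fold for SMOX and 1.12-fold for OAZ1. Among all genes the span of SRM lay at the 97.6th percentile and that of OAZ1 at the 1.04th.

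**Figure D1:**
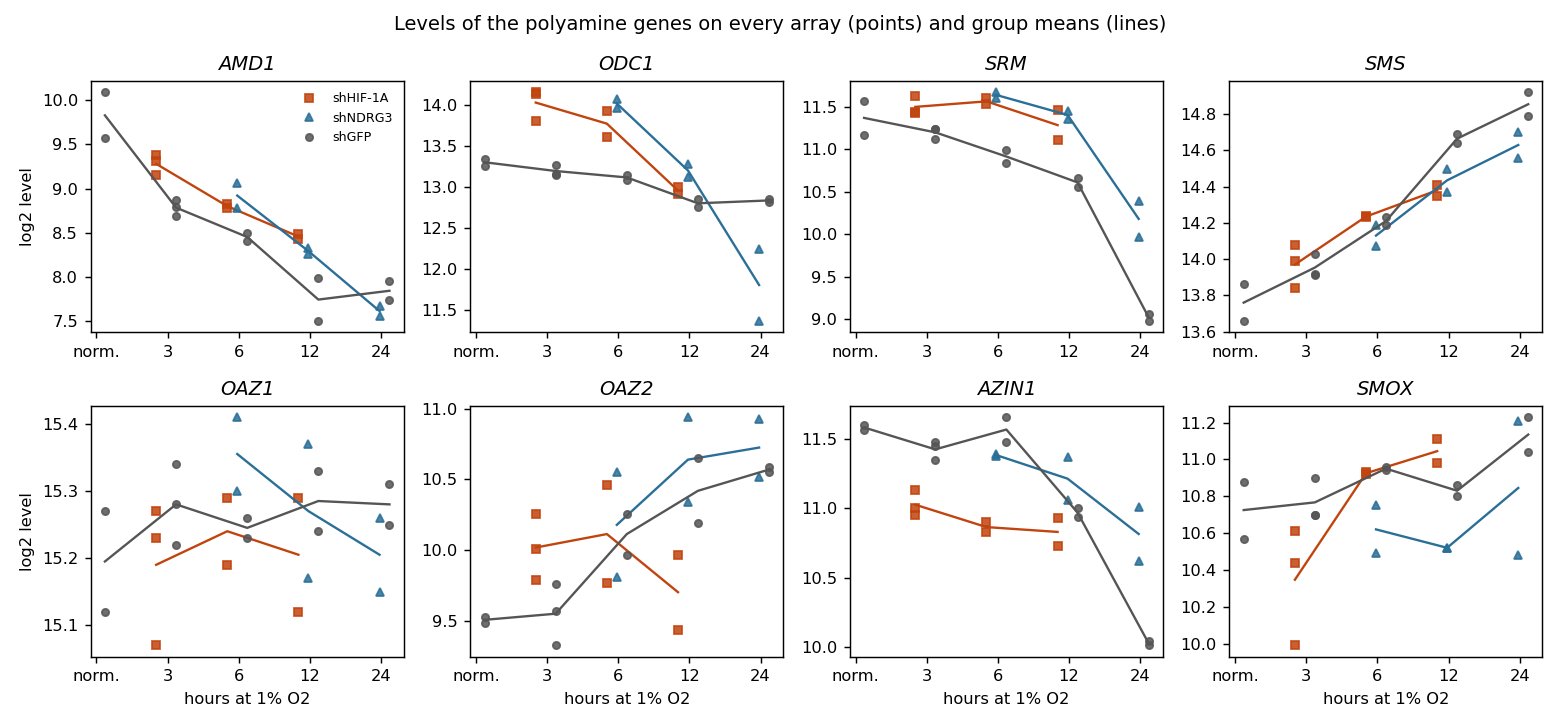
Log2 levels of the 8 polyamine genes (y axes, each with its own scale) against hours at 1% oxygen (x axes, with norm. for normoxia) in the shHIF-1A, shNDRG3 and shGFP lines. Points are single arrays and lines join group means. AMD1, SRM and AZIN1 run down and SMS runs up with time in shGFP, ODC1 of the shNDRG3 line drops to 11.37 and 12.24 at 24 h, and OAZ1 stays between 15.07 and 15.41 on all 24 arrays.

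The first comparison asked how the genes changed in control shGFP cells over a day of hypoxia. AMD1, SRM and AZIN1 were lower and SMS and OAZ2 higher at the end of it. At 24 h 6 of 8 members had passed the test, where 45.4% of all genes passed (2 were higher, against 21.1% of all genes, and 4 lower, against 24.2%). At 12 h 6 of 8 passed against 25.2% of all genes, and at 6 h 2 of 8 passed against 4.87%. At 3 h 1.48% of all genes passed; the set was chosen by the AMD1 value of that comparison, so no count of members is read from it. All times are set against the same 2 normoxia arrays, which the choice of the set also used. The AMD1 calls in these counts are therefore not independent of that choice. The steps inside hypoxia that do not use the normoxia arrays passed for 3 of 8 members from 6 h to 12 h, against 8.9% of all genes. From 12 h to 24 h they passed for 2 of 8, against 27.2%. Of the 3 from 6 h to 12 h, AMD1 lost its call without shGFP 6 h replicate 1 (-0.66) or 12 h replicate 2 (-0.47), SMS without the same arrays (0.44 and 0.43), and AZIN1 without shGFP 6 h replicate 2 (-0.51).

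AMD1 is the member whose level at 3 h led to the choice of the set. Its log2 levels were 10.09 and 9.57 in normoxia, 8.87, 8.79 and 8.69 after 3 h, 8.49 and 8.41 after 6 h, 7.98 and 7.50 after 12 h, and 7.73 and 7.95 after 24 h. Both normoxia arrays stood above every hypoxic shGFP array, by more than the normoxia arrays differed from each other, and the 12 h and 24 h arrays overlapped. The difference from normoxia at 3 h was -1.04 ± 0.14, or 2.06-fold lower, and it was -0.79 without normoxia replicate 1 and -1.30 without replicate 2. AMD1 then fell to 2.6-fold below normoxia at 6 h (log2 difference -1.38 ± 0.15, adjusted p = 1.24e-06) and 4.25-fold below it at 12 h (-2.09 ± 0.15, adjusted p = 3.42e-10). At 24 h it was 3.98-fold lower (-1.99 ± 0.15, adjusted p = 1.72e-10), a difference of 0.10 ± 0.15 from 12 h (adjusted p = 0.719, 95% interval -0.22 to 0.41). AMD1 was dim at these hours, with means 0.71 (12 h) and 0.81 (24 h) log2 units above the array median. The array at 7.50 was under 1.5 times that median. Both folds and any further fall after 12 h may therefore be understated. The 6 h, 12 h and 24 h tests against normoxia reuse the normoxia arrays by which the set was chosen. Their p-values for AMD1 are therefore not independent of that choice. At 3 h the other 7 genes differed from normoxia by -0.17 to 0.19.

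SRM moved late. It had log2 levels of 11.57 and 11.17 in normoxia, 11.24, 11.24 and 11.12 after 3 h, 10.84 and 10.99 after 6 h, 10.56 and 10.66 after 12 h, and 8.98 and 9.06 after 24 h. The 24 h arrays lay more than a log2 unit below every other shGFP array. At 6 h both arrays already lay below all earlier ones, and the difference from normoxia of -0.46 ± 0.14 did not pass (adjusted p = 0.0667). SRM was 1.7-fold lower at 12 h than in normoxia (log2 difference -0.76 ± 0.14, adjusted p = 2.61e-04) and 5.13-fold lower at 24 h (-2.36 ± 0.14, adjusted p = 2.88e-12). The step from 12 h to 24 h alone was a 3.02-fold fall (-1.60 ± 0.14, adjusted p = 2.07e-08) and does not use the normoxia arrays.

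ODC1, which makes the putrescine that SRM extends, changed little in control cells. In log2 units it stood at 13.34 and 13.26 in normoxia, 13.27, 13.16 and 13.15 after 3 h, 13.08 and 13.15 after 6 h, 12.75 and 12.85 after 12 h, and 12.82 and 12.85 after 24 h. The 12 h and 24 h arrays lay below all earlier ones. The difference from normoxia was -0.50 ± 0.18 at 12 h (adjusted p = 0.0423) and -0.46 ± 0.18 at 24 h (adjusted p = 0.0358). Neither call was robust: the 12 h call was lost when any of 12 arrays was left out, with values of -0.45 (without shGFP 12 h replicate 1) to -0.55 (without shGFP 12 h replicate 2). The 24 h call was lost without normoxia replicate 1 (-0.42), normoxia replicate 2 (-0.50), shGFP 24 h replicate 1 (-0.45) or shGFP 24 h replicate 2 (-0.48).

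The promoters of the 3 enzymes above and of SMS are shown because MYC, described further on, is known to act on ODC1 and SRM through the E-box CACGTG, and hypoxia-inducible factors bind around the core ACGTG. RefSeq windows on GRCh38.p14, from 250 bases before to 50 after an annotated start, were found for 6 of the 8 genes. Both motifs were searched on both strands and are in capitals; ACGTG is contained in the E-box, so the searches overlap. These genes have 9 windows, some of them overlapping. The E-box was found in 2 of the 9 (1 each of ODC1 and SRM), against 7.26% of 35116 windows of the same length, and ACGTG in 3 of the 9 (1 each of ODC1, SRM and SMS), against 21.4% of those windows. The printed ODC1 window has E-boxes starting at positions -29 and 6 relative to the annotated start of that window. Another annotated ODC1 window, chr2:10448278-10448577, lies upstream of it and holds none. SRM has an E-box at -199. SMS has ACGTG on the other strand at -139, printed as CACGT, and none of the AMD1, OAZ1 or OAZ2 windows holds either. The first line below is chr6:110874534-110874833 (plus strand), the next chr2:10447963-10448262 (minus), then chr1:11059969-11060268 (minus) and the last chrX:21940459-21940758 (plus). A match describes these letters and is no evidence of binding.
AMD1: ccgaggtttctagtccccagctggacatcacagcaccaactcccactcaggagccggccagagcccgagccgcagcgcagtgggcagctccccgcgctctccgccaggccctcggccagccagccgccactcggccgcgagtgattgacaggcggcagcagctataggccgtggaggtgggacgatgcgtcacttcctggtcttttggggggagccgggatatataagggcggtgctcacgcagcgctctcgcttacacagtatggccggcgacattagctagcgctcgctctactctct
ODC1: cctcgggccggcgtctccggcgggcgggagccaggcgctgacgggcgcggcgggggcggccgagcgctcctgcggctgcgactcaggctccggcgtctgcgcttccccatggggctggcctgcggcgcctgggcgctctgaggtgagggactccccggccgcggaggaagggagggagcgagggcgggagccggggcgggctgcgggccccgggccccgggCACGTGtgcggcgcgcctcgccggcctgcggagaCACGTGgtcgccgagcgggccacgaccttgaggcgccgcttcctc
SRM: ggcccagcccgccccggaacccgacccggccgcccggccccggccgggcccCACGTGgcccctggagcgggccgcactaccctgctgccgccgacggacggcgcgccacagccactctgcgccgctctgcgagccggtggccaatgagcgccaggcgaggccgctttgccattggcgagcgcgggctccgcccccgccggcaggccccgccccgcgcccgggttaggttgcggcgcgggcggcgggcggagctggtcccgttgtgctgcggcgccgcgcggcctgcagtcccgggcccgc
SMS: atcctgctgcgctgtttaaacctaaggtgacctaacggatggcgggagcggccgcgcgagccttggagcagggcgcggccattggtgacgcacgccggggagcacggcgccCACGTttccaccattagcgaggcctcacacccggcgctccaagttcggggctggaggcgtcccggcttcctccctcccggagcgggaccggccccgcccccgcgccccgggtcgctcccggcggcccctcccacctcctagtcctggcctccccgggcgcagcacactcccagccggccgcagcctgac

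SMS, which makes spermine, went the other way from AMD1 and SRM. The log2 levels of SMS were 13.86 and 13.66 in normoxia, 13.91, 14.03 and 13.92 after 3 h, 14.19 and 14.23 after 6 h, 14.64 and 14.69 after 12 h, and 14.79 and 14.92 after 24 h. The groups followed one another in order of time without overlap. At 6 h SMS was higher than in normoxia by 0.45 ± 0.11 (adjusted p = 0.0124), lost without normoxia replicate 2 (0.35), shGFP 6 h replicate 1 (0.47) or shGFP 6 h replicate 2 (0.43). SMS was 1.87-fold higher at 12 h than in normoxia (log2 difference 0.91 ± 0.11, adjusted p = 7.32e-07) and 2.13-fold higher at 24 h (1.09 ± 0.11, adjusted p = 9.03e-09). Its other probe gave a difference of 1.32 at 24 h (adjusted p = 2.12e-10 over probes). SMOX, which reverses the SMS step, had log2 levels of 11.04 and 11.23 at 24 h, against 10.88 and 10.57 in normoxia. That difference of 0.41 ± 0.18 did not pass (adjusted p = 0.072), although the groups did not overlap. It passed in fits without normoxia replicate 1 (0.57, adjusted p = 0.0473), shHIF-1A 3 h replicate 2 (0.41, adjusted p = 0.04) or either shNDRG3 24 h array (0.41, adjusted p = 0.0176).

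The proteins that bind or spare ODC1 did not move together. AZIN1 had log2 levels of 11.57 and 11.60 in normoxia, 11.35, 11.48 and 11.45 after 3 h, 11.48 and 11.66 after 6 h, 10.94 and 11.002 after 12 h, and 10.04 and 10.01 after 24 h. Arrays up to 6 h overlapped, and the 12 h and 24 h groups each lay below all earlier ones. AZIN1 fell to 2.94-fold below normoxia at 24 h (log2 difference -1.56 ± 0.12, adjusted p = 3.62e-10), and from 12 h to 24 h by 1.93-fold (-0.95 ± 0.12, adjusted p = 5e-06). A second AZIN1 probe gave -1.64 at 24 h, and the dimmest, near the array median on all arrays, gave -0.29 (adjusted p = 0.109 over probes).

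OAZ2 had log2 levels of 10.59 and 10.55 at 24 h, against 9.49 and 9.53 in normoxia. Between these times its arrays lay at 9.33, 9.76 and 9.57 after 3 h, 9.97 and 10.26 after 6 h, and 10.19 and 10.65 after 12 h. Pooled over all 11 groups, its SD of 0.31 was the largest of the 8 members. The 24 h difference was 1.06 ± 0.25, or 2.08-fold (adjusted p = 0.00122), and without normalization between arrays it was 0.40 (adjusted p = 0.194), where the median of all genes moved by -0.415. At 12 h OAZ2 was higher by 0.91 ± 0.25 (adjusted p = 0.00911), and this call was lost without normoxia replicate 1 (0.89, adjusted p = 0.0567) or shGFP 12 h replicate 2 (0.68, adjusted p = 0.154). OAZ1 differed from normoxia by 0.09 ± 0.11 at 24 h (adjusted p = 0.568, 95% interval -0.14 to 0.31). Its signal lies near the top of the scale, where the brightest probe of all reached 15.71, and a bright probe can understate change. Without normalization between arrays the sign of this difference turned (-0.30, adjusted p = 0.026), which is 0.11 above the shift of the median gene.

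**Figure D2:**
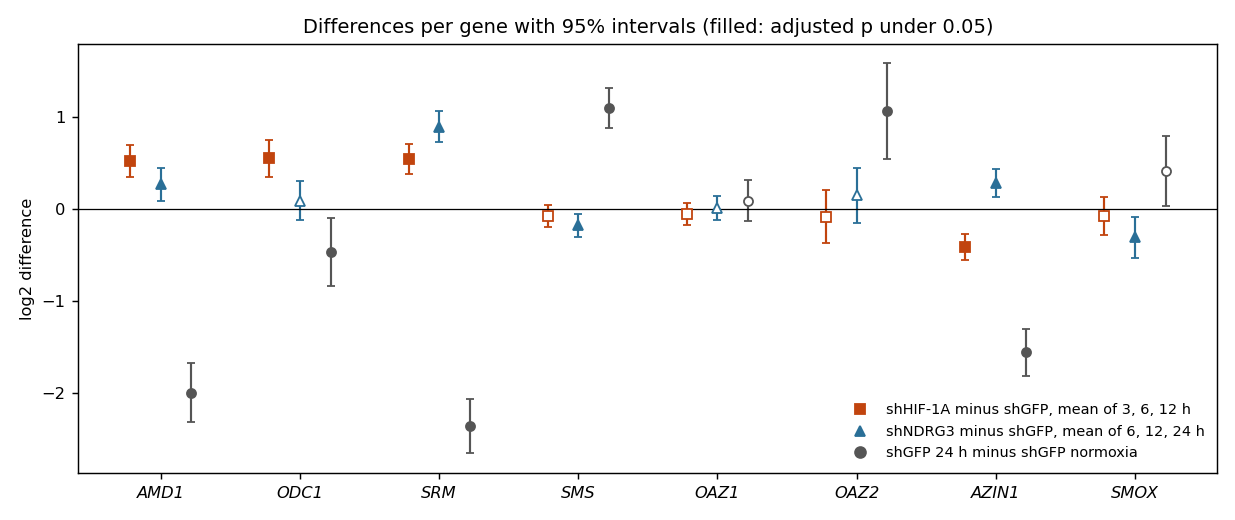
Log2 differences (y axis) of each gene (x axis) between shHIF-1A and shGFP averaged over 3 h, 6 h and 12 h, between shNDRG3 and shGFP averaged over 6 h, 12 h and 24 h, and between 24 h of hypoxia and normoxia in shGFP. Bars are 95% intervals and filled symbols passed an adjusted p of 0.05. SRM lies at 0.54 and 0.89 in the knockdown lines and at -2.36 after 24 h of hypoxia. AZIN1 lies at -0.42 in shHIF-1A and 0.28 in shNDRG3, averages over partly different hours.

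The next comparison asked how the genes differed in cells with less HIF1A. The 3 enzymes from ODC1 and AMD1 to SRM were higher in shHIF-1A than in shGFP cells, and AZIN1 was lower. On average over 3 h, 6 h and 12 h 4 of 8 members passed, against 38% of all genes (3 were higher, against 19.2%, and 1 lower, against 18.8%). AMD1 was 1.43-fold higher (log2 difference 0.52 ± 0.08, adjusted p = 1.97e-05), ODC1 1.46-fold higher (0.55 ± 0.10, adjusted p = 6.25e-05) and SRM 1.45-fold higher (0.54 ± 0.08, adjusted p = 4.3e-06). AZIN1 was 1.33-fold lower (-0.42 ± 0.07, adjusted p = 2.45e-05). Each of these 4 calls held when any 1 array was left out. The AMD1 average includes the 3 h shGFP arrays that the choice of the set also used. SMS (-0.08 ± 0.06), OAZ1 (-0.06 ± 0.06), OAZ2 (-0.08 ± 0.14) and SMOX (-0.07 ± 0.10) did not pass. A second SMOX probe had shHIF-1A means of 9.70, 9.87 and 10.21 at 3 h, 6 h and 12 h. Its shGFP means at these hours were 10.08, 10.16 and 10.26.

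Hour by hour, 4 of 8 members passed at 3 h (against 25.1% of all genes), 3 at 6 h (18.1%) and 3 at 12 h (23.3%). ODC1 had log2 levels of 14.15, 13.80 and 14.13 in shHIF-1A cells at 3 h, against 13.27, 13.16 and 13.15 in shGFP cells. At 12 h they were 12.91 and 13.00 in shHIF-1A, against 12.75 and 12.85 in shGFP. The groups did not overlap at either time, and the difference was 0.83 ± 0.14 at 3 h (adjusted p = 1.28e-04) and 0.16 ± 0.18 at 12 h (adjusted p = 0.616, 95% interval -0.21 to 0.53). The change of this difference between the hours, -0.67 ± 0.23, did not pass (adjusted p = 0.174). At 6 h the ODC1 difference was 0.65 (adjusted p = 0.0111), lost without shGFP 6 h replicate 1 (0.62), shGFP 6 h replicate 2 (0.69) or shHIF-1A 6 h replicate 1 (0.49).

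A pair of members passed narrowly at single hours. SMOX had log2 levels of 10.61, 9.99 and 10.44 in shHIF-1A cells at 3 h, against 10.90, 10.70 and 10.70 in shGFP cells. The groups did not overlap, and the difference of -0.42 (adjusted p = 0.0441) lost its call without any of 17 arrays and was -0.24 without shHIF-1A 3 h replicate 2. The second SMOX probe stood at 9.67 to 9.74 in shHIF-1A at 3 h, against 10.05 to 10.13 in shGFP. The dimmest SMOX probe lay near the array median. OAZ2 had 9.44 and 9.97 in shHIF-1A cells at 12 h, against 10.19 and 10.65 in shGFP cells. Its difference of -0.72 (adjusted p = 0.0417) lost its call without any of 5 arrays, with -0.45 without shHIF-1A 12 h replicate 1 and -0.48 without shGFP 12 h replicate 2. With median-centred arrays neither passed (adjusted p = 0.143 for SMOX and 0.0851 for OAZ2).

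SRM of shHIF-1A cells stood at 11.44, 11.43 and 11.63 after 3 h, 11.60 and 11.53 after 6 h, and 11.46 and 11.11 after 12 h. At 3 h it differed from shGFP by 0.30 ± 0.12, which did not pass (adjusted p = 0.0637). At 6 h it exceeded shGFP by 0.65 ± 0.14 (adjusted p = 0.00192) and at 12 h by 0.67 ± 0.14 (adjusted p = 0.00106), with no overlap between the lines. AMD1 stood at 9.31, 9.15 and 9.38 after 3 h, 8.78 and 8.82 after 6 h, and 8.48 and 8.43 after 12 h in shHIF-1A. Each of these arrays was above every shGFP array of its hour. The AMD1 difference was 0.49 ± 0.12 at 3 h (adjusted p = 0.0046, with the 3 h shGFP arrays that the choice of the set also used), 0.35 ± 0.15 at 6 h (adjusted p = 0.13) and 0.71 ± 0.15 at 12 h (adjusted p = 0.00123). Without shGFP 12 h replicate 2 the 12 h difference was 0.47 (adjusted p = 0.0693).

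AZIN1 of shHIF-1A cells was low from the first hours on. Its log2 levels were 10.95, 10.996 and 11.13 after 3 h, 10.83 and 10.90 after 6 h, and 10.73 and 10.93 after 12 h. At 3 h and 6 h all shHIF-1A arrays lay below all shGFP arrays of the hour, and at 12 h both shHIF-1A arrays lay below both of shGFP. The difference was -0.40 ± 0.10 at 3 h (adjusted p = 0.00478), -0.70 ± 0.12 at 6 h (adjusted p = 2.43e-04) and -0.14 ± 0.12 at 12 h (adjusted p = 0.5). The second AZIN1 probe gave an average of -0.44 and the dimmest probe did not pass.

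**Figure D3:**
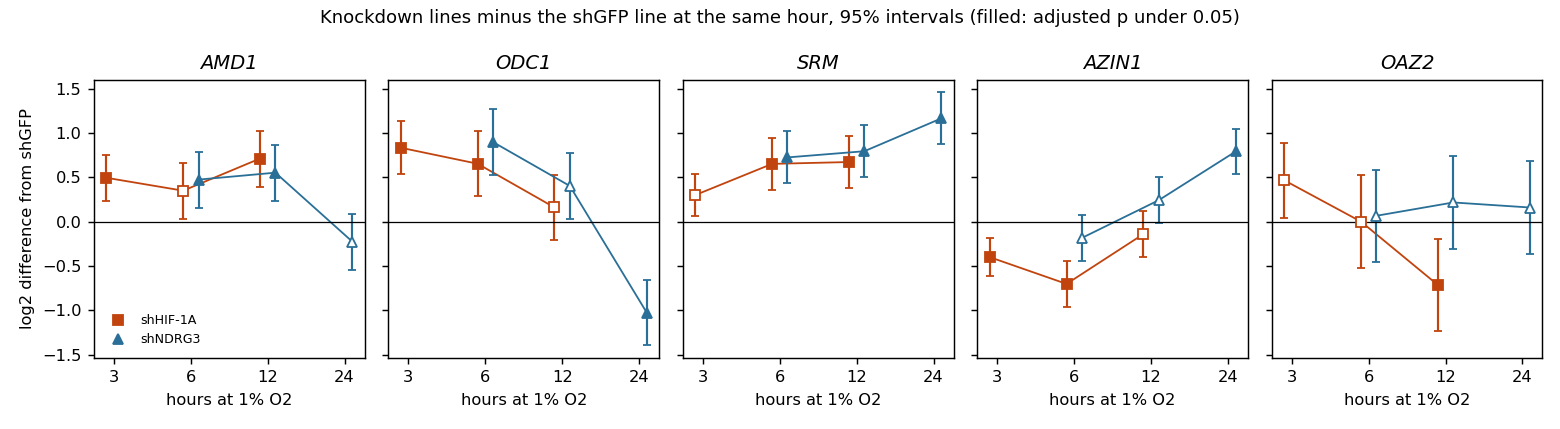
Log2 differences of the shHIF-1A and shNDRG3 lines from shGFP at the same hour (y axis) against hours at 1% oxygen (x axis) for AMD1, ODC1, SRM, AZIN1 and OAZ2. Bars are 95% intervals and filled symbols passed an adjusted p of 0.05. The ODC1 difference of shNDRG3 runs through 0.90 at 6 h, 0.40 at 12 h and -1.03 at 24 h, while that of SRM runs through 0.72, 0.79 and 1.16.

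In cells with less NDRG3, SRM was higher than in shGFP cells at every hour, and ODC1 was higher early and lower late. On average over 6 h, 12 h and 24 h 5 of 8 members passed, against 43.6% of all genes (3 were higher, against 22.7%, and 2 lower, against 20.9%). Hour by hour, 3 of 8 passed at 6 h (against 25.3%), 2 at 12 h (27.5%) and 3 at 24 h (33.2%). SRM was 1.86-fold higher on average (log2 difference 0.89 ± 0.08, adjusted p = 2.89e-09) and AZIN1 1.22-fold higher (0.28 ± 0.07, adjusted p = 0.00231). On the brightest probe the AZIN1 average joins opposite signs, with -0.18 at 6 h, 0.24 at 12 h (adjusted p = 0.171) and 0.79 at 24 h. The second AZIN1 probe had 6 h means of 9.38 in shNDRG3 and 9.35 in shGFP. With arrays centred on their median instead of quantile normalized, the AZIN1 average was 0.26 (adjusted p = 0.059).

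The other 3 calls of the shNDRG3 average were narrow. AMD1 was 1.2-fold higher (0.27 ± 0.09, adjusted p = 0.0163), but its shNDRG3 mean at 24 h is under 1.5 times the array median, where a difference is understated; the 24 h difference is negative, so the average may be overstated and is no lower bound. The call was lost without shNDRG3 6 h replicate 1 (0.22), shGFP 12 h replicate 2 (0.19) or shGFP 24 h replicate 1 (0.23). SMOX was lower, with a log2 difference of -0.31 ± 0.11 (adjusted p = 0.021), lost without shNDRG3 6 h replicate 2 (-0.27), shGFP 24 h replicate 2 (-0.28) or shNDRG3 24 h replicate 2 (-0.19). The second SMOX probe had shNDRG3 means of 9.72, 9.82 and 10.05 at 6 h, 12 h and 24 h. Its shGFP means at these hours were 10.16, 10.26 and 10.32. SMS was lower too (-0.18 ± 0.06, adjusted p = 0.021), lost without shNDRG3 6 h replicate 1 (-0.16), shGFP 12 h replicate 2 (-0.17), shNDRG3 12 h replicate 1 (-0.16), shGFP 24 h replicate 2 (-0.16) or shNDRG3 24 h replicate 2 (-0.15). With median-centred arrays the SMS difference was -0.06 (adjusted p = 0.599).

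The AMD1 average joined opposite signs. In shNDRG3 cells AMD1 had log2 levels of 9.06 and 8.78 after 6 h, 8.32 and 8.26 after 12 h, and 7.67 and 7.55 after 24 h. These arrays lay above the shGFP arrays at 6 h and 12 h and below them at 24 h. The difference was 0.47 at 6 h (adjusted p = 0.024), lost without shGFP 6 h replicate 1 (0.52), shGFP 6 h replicate 2 (0.43) or shNDRG3 6 h replicate 1 (0.34). At 12 h it was 0.55 (adjusted p = 0.0082), lost without shGFP 12 h replicate 2 (0.31) or shNDRG3 12 h replicate 1 (0.52), and at 24 h it was -0.23 (adjusted p = 0.297). With median-centred arrays the 6 h and 12 h values were 0.40 (adjusted p = 0.103) and 0.45 (adjusted p = 0.0592).

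SRM had log2 levels of 11.61 and 11.67 after 6 h, 11.45 and 11.36 after 12 h, and 9.97 and 10.39 after 24 h in shNDRG3 cells. All lay above the shGFP arrays of the same hour, whose 24 h levels were 8.98 and 9.06. The difference was 0.72 ± 0.14 at 6 h (adjusted p = 4.25e-04), 0.79 ± 0.14 at 12 h (adjusted p = 1.37e-04) and 1.16 ± 0.14, or 2.24-fold, at 24 h (adjusted p = 6.99e-07). Its change between 6 h and 24 h, 0.44 ± 0.20, did not pass (adjusted p = 0.188), and it passed without shNDRG3 24 h replicate 1 (0.65, adjusted p = 0.018).

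ODC1 had log2 levels of 14.07 and 13.96 after 6 h, 13.12 and 13.28 after 12 h, and 11.37 and 12.24 after 24 h in shNDRG3 cells. Against the shGFP arrays these were above at 6 h and 12 h and below at 24 h, without overlap at any hour. The difference was 0.90 ± 0.18, or 1.86-fold higher, at 6 h (adjusted p = 4.62e-04), 0.40 ± 0.18 at 12 h (adjusted p = 0.102) and -1.03 ± 0.18, or 2.04-fold lower, at 24 h (adjusted p = 6.88e-05). The 24 h arrays differ from each other, and the value was -0.59 without shNDRG3 24 h replicate 1 and -1.46 without replicate 2, both past the threshold. With only the 4 arrays compared in the fit the same -1.03 had an adjusted p of 0.0855. The ODC1 difference changed by -1.92 ± 0.25 between 6 h and 24 h (adjusted p = 1.42e-05), with values of -2.36 to -1.49 over the arrays left out in turn. The shNDRG3 average of ODC1, 0.09 ± 0.10 (adjusted p = 0.536), therefore joins opposite signs, and was 0.24 (adjusted p = 0.00922) without shNDRG3 24 h replicate 1.

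That change of the knockdown difference between 6 h and 24 h passed for 3 of 8 members, against 10.7% of all genes. AZIN1 was the member that changed upward, by 0.97 ± 0.18 (adjusted p = 6.21e-04). Its log2 levels were 11.38 and 11.39 at 6 h and 10.62 and 11.01 at 24 h in shNDRG3 cells, against 11.48 and 11.66 at 6 h and 10.04 and 10.01 at 24 h in shGFP cells. On this brightest probe the lines stood in opposite order at the 2 hours. On the second AZIN1 probe they overlapped at 6 h, with 9.45 and 9.30 in shNDRG3 against 9.34 and 9.35 in shGFP. That probe stood at 8.32 and 8.93 in shNDRG3 at 24 h, against 8.01 and 7.69 in shGFP. At 24 h AZIN1 was 1.73-fold higher in shNDRG3 (0.79 ± 0.12, adjusted p = 2.25e-05). AMD1 changed by -0.70 ± 0.22 (adjusted p = 0.0385), and this was lost without shGFP 6 h replicate 1 (-0.74), shGFP 6 h replicate 2 (-0.66), shNDRG3 6 h replicate 1 (-0.56), shGFP 24 h replicate 2 (-0.59) or shNDRG3 24 h replicate 2 (-0.64). For shHIF-1A the change between 3 h and 12 h passed for 0 of 8 members in limma, against 1.23% of all genes. An unadjusted p under 0.05 was reached by 4 of the 8. With array weights or only the arrays compared it passed for 2. The share of all genes in those fits is not given, so that count is not read as a result about the members.

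Within the knockdown lines themselves the course of hypoxia could be followed without any shGFP array. From 6 h to 24 h in shNDRG3 cells 5 of 8 members passed, against 40.1% of all genes. ODC1 fell by 4.63-fold (log2 difference -2.21 ± 0.18, adjusted p = 6.84e-10), SRM by 2.75-fold (-1.46 ± 0.14, adjusted p = 1.45e-08) and AMD1 by at least 2.48-fold (-1.31 ± 0.15, adjusted p = 2.4e-07), while SMS rose by 1.42-fold (0.50 ± 0.11, adjusted p = 4.54e-04). AZIN1 fell by 1.48-fold (-0.57 ± 0.12, adjusted p = 6.92e-04). With only the arrays compared in the fit, the SMS and AZIN1 calls were lost (adjusted p = 0.0519 and 0.0724). The steps from 6 h to 12 h and from 12 h to 24 h passed for 2 of 8 (against 11.5% of all genes) and for 4 of 8 (27.7%). From 3 h to 12 h in shHIF-1A cells 4 of 8 passed, against 21.7% of all genes. ODC1 fell by 2.1-fold (-1.07 ± 0.16, adjusted p = 3.97e-05), AMD1 by 1.77-fold (-0.83 ± 0.14, adjusted p = 1.32e-04), and SMS rose by 1.33-fold (0.41 ± 0.10, adjusted p = 0.00347). SMS stood at 13.99, 13.84 and 14.08 after 3 h, 14.24 and 14.23 after 6 h, and 14.35 and 14.41 after 12 h in shHIF-1A cells, without overlap between the hours. SMOX rose by 0.70 ± 0.17 (adjusted p = 0.00375), lost without shHIF-1A 12 h replicate 1 (0.63, adjusted p = 0.0623).

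Set directly against each other at the 2 shared hours, 6 h and 12 h, the knockdown lines differed in AZIN1. It averaged 1.37-fold lower in shHIF-1A than in shNDRG3 cells (log2 difference -0.45 ± 0.09, adjusted p = 6.66e-04), with 10.83 and 10.90 in shHIF-1A against 11.38 and 11.39 in shNDRG3 at 6 h, and 10.73 and 10.93 in shHIF-1A against 11.06 and 11.37 in shNDRG3 at 12 h. The lines did not overlap at either hour, and with median-centred arrays the value was -0.39 (adjusted p = 0.0606). On average 2 of 8 members passed, against 15.8% of all genes, and 1 of 8 at 6 h (7.25%) and at 12 h (9.99%). The other was SMOX, at 10.93, 10.92, 11.11 and 10.98 in shHIF-1A against 10.75, 10.49, 10.52 and 10.52 in shNDRG3 (0.41 ± 0.13, adjusted p = 0.0308). The SMOX call was lost without any 1 of shHIF-1A 6 h replicate 1 (0.41), shHIF-1A 6 h replicate 2 (0.42), shHIF-1A 12 h replicate 1 (0.38), shNDRG3 6 h replicate 2 (0.35), shNDRG3 12 h replicate 1 (0.41) or shNDRG3 12 h replicate 2 (0.41), and a second SMOX probe gave 0.27 (adjusted p = 0.236 over probes). AMD1 (0.02 ± 0.11, 95% interval -0.21 to 0.24), SRM (-0.10 ± 0.10, -0.31 to 0.11) and ODC1 (-0.24 ± 0.13, -0.50 to 0.02) did not pass, and OAZ2 (-0.50 ± 0.18) had an adjusted p of 0.0607. ODC1 passed without either shNDRG3 24 h array (-0.24, adjusted p = 0.0384). OAZ2 passed without any 1 of shNDRG3 6 h replicate 1 (-0.68), shHIF-1A 6 h replicate 1 (-0.67), shNDRG3 12 h replicate 1 (-0.65), shHIF-1A 12 h replicate 2 (-0.63) or either shNDRG3 24 h array (-0.50).

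Among 20 other genes of polyamine breakdown, precursor supply, transport and use, 18 passed the filter. After 24 h of hypoxia in shGFP cells 3 of these were higher (against 21.1% of all genes) and 9 lower (against 24.2%), with a median log2 difference of -0.41 against -0.003 over all genes. SAT1, the acetyltransferase that starts polyamine breakdown and export, was among the higher ones. Its log2 levels were 14.72 and 14.69 at 24 h, against 13.03 and 12.82 in normoxia, a rise of 3.44-fold (1.78 ± 0.18, adjusted p = 2.29e-08). The arginine transporter SLC7A1 fell by 3.73-fold, AGMAT, annotated as agmatinase, by at least 4.67-fold, and the arginase ARG2 rose by 2.53-fold.

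SAT1 was lower in both knockdown lines at every hour. It had 11.59, 11.47 and 11.55 after 3 h, 11.53 and 11.63 after 6 h, and 11.75 and 12.09 after 12 h in shHIF-1A cells, and 11.08 and 10.97 after 6 h, 11.21 and 11.29 after 12 h, and 13.54 and 12.55 after 24 h in shNDRG3 cells. The shGFP arrays ranged from 12.83 to 13.52 between 3 h and 12 h and exceeded all knockdown arrays of those hours, as the 24 h arrays of shGFP did at 24 h. SAT1 averaged 2.69-fold lower in shHIF-1A than in shGFP (-1.43 ± 0.10, adjusted p = 4.36e-11) and 3.83-fold lower in shNDRG3 than in shGFP (-1.94 ± 0.11, adjusted p = 2.47e-13). Of the same 18 genes, 5 were higher (against 19.2% of all genes) and 3 lower (18.8%) in shHIF-1A than in shGFP on average. In shNDRG3 6 were higher (22.7%) and 4 lower (20.9%) than in shGFP. The hypusine hydroxylase DOHH, which acts on the spermidine-derived residue of EIF5A, was higher in shHIF-1A (0.50). EIF5A2, a second form of EIF5A, was dim in part of the groups and at least 1.55-fold lower in shHIF-1A and at least 1.51-fold lower in shNDRG3. Its other probe, near the array median, gave log2 differences of -0.29 (adjusted p = 0.0106 over probes) in shHIF-1A and -0.17 (adjusted p = 0.162) in shNDRG3. Between the knockdown lines 2 of the 18 were higher and 2 lower in shHIF-1A, where 15.8% of all genes passed in either direction. The amino acid transporter SLC7A2 was 2.04-fold higher in shHIF-1A, with 0.16 (adjusted p = 0.341 over probes) for its other probe, near the array median, and SAT1 1.53-fold higher (0.61 ± 0.13, adjusted p = 0.0015).

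The methionine cycle and salvage genes supply and recover the substrate of AMD1, and 12 of 15 passed the filter. After 24 h in shGFP cells 1 was higher (against 21.1% of all genes) and 7 lower (24.2%), with a median of -0.36. Among these, CBS, which takes homocysteine out of the cycle, fell by 3.24-fold, ENOPH1 by 2.09-fold, ADI1 by 1.91-fold and AHCY by 1.81-fold. ENOPH1 and ADI1 act in methionine salvage and AHCY hydrolyses S-adenosylhomocysteine. In shHIF-1A cells 6 were higher (against 19.2%) and 2 lower (18.8%) than in shGFP, with a median of 0.21. AHCY was 1.7-fold higher there and MAT2A, which makes S-adenosylmethionine, lower with a log2 difference of -0.34. In shNDRG3 cells 7 were higher (against 22.7%) and 2 lower (20.9%) than in shGFP, with a median of 0.32, AHCY being 2.06-fold and CBS 1.79-fold higher. Between shHIF-1A and shNDRG3 cells 1 of the 12 passed, against 15.8% of all genes. This was APIP (-0.27, adjusted p = 0.0494), whose call was lost without any of 14 arrays. Its other probe gave -0.41 (adjusted p = 0.0194 over probes).

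**Figure D4:**
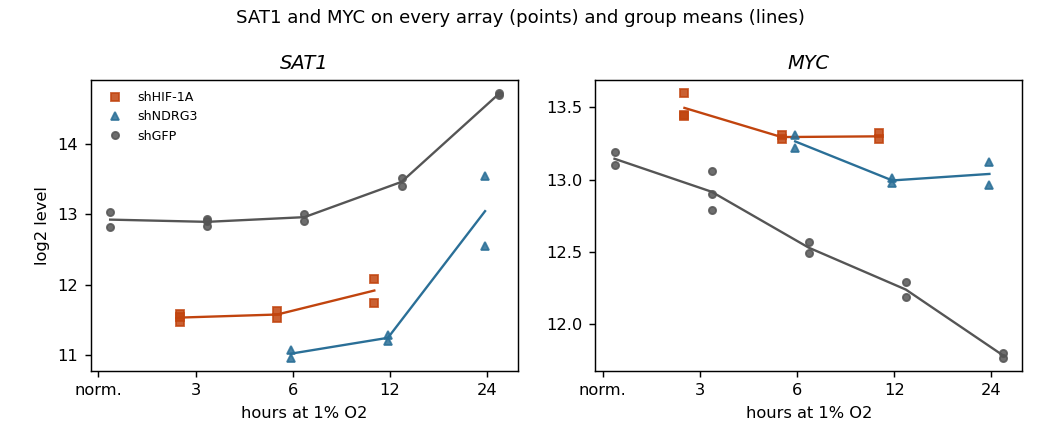
Log2 levels of SAT1 and MYC (y axes) against hours at 1% oxygen (x axes, with norm. for normoxia) in the shHIF-1A, shNDRG3 and shGFP lines. Points are single arrays and lines join group means. SAT1 of the knockdown lines lies below shGFP and MYC of the knockdown lines above shGFP at every shared hour.

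MYC, the transcription factor known to act on several of these genes, was measured with 8 others of the MYC and MAX network. Its log2 levels in shGFP cells were 13.19 and 13.10 in normoxia, 12.90, 12.79 and 13.06 after 3 h, 12.49 and 12.57 after 6 h, 12.19 and 12.29 after 12 h, and 11.77 and 11.80 after 24 h. It fell to 2.56-fold below normoxia at 24 h (-1.36 ± 0.10, adjusted p = 1.9e-10). In shHIF-1A cells it lay between 13.28 and 13.60 and in shNDRG3 cells between 12.96 and 13.31, above the shGFP arrays of every shared hour. MYC averaged 1.74-fold higher in shHIF-1A than in shGFP (0.80 ± 0.057, adjusted p = 5.52e-11) and 1.89-fold higher in shNDRG3 than in shGFP (0.92 ± 0.060, adjusted p = 8.09e-12). MXD1, a partner of MAX that opposes MYC, was 9.31-fold higher at 24 h than in normoxia, 2.02-fold lower in shHIF-1A than in shGFP and 2.47-fold lower in shNDRG3 than in shGFP. MXI1, another such partner, was at least 5.83-fold higher at 24 h, where 2 of its 3 other probes, near the array median, did not pass. It was lower in shHIF-1A (-0.22, adjusted p = 0.00387) and higher in shNDRG3 (0.33, adjusted p = 1.22e-04) than in shGFP. None of its 3 other probes passed in either comparison, with -0.12 to 0.10 in shHIF-1A and -0.06 to 0.12 in shNDRG3. MXD4 was higher in shHIF-1A (0.32, adjusted p = 0.0227) and MXD3 in shNDRG3 (0.38, adjusted p = 0.00131). Of the 9 genes, 5 were higher (against 21.1% of all genes) and 2 lower (24.2%) after 24 h of hypoxia, 2 higher (19.2%) and 3 lower (18.8%) in shHIF-1A than in shGFP, and 3 higher (22.7%) and 2 lower (20.9%) in shNDRG3 than in shGFP. Whether any of these had a part in the levels of AMD1, ODC1 or SRM was not tested.

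As a description over the 11 group means, which share arrays, lines and hours, the genes most like SRM were NME1, ATIC and TAF6L (Pearson r = 0.993 each). Those most like AMD1 were SNORD48 (0.976), OBI1 (0.976) and NGDN (0.973), and most like ODC1 were POLR3G (0.972), ARHGAP27P1 (0.972) and MOB3B (0.965). SMS was most like PKP3 (0.979), PAG1 (0.977) and LINC00709 (0.976), and AZIN1 most like MID1 (0.969), POLR3C (0.962) and TROAP (0.949). OAZ2 was most like EMD (0.932), SMOX most like STX2 (0.93), and OAZ1 most like RASGRF1 (0.873). Among the members, AMD1 and SMS ran most nearly opposite (-0.936), AMD1 and ODC1 ran together at 0.726 and SRM and AZIN1 at 0.733.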

How the data were processed

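Per the labels' protocols, the authors amplified and biotin-labelled the total RNA of 24 samples for Illumina bead arrays (47231 probes). They deposited linear probe intensities, with array medians from 115 to 150. In shGFP these medians ran from 145.3 and 147.9 in normoxia down to 114.8 and 116.9 at 24 h. Quantile normalization removes such a shift, so changes with hours are relative to the other genes on the array. How these were scanned, background-corrected or normalized is not stated in the labels. Nothing was subtracted as background, which shrinks the folds of dim genes, so a fold with a group under 1.5 times the array median is given as a lower bound, except where the text says otherwise. Values were logged (log2 of the deposited intensities) and then quantile normalized in limma 3.58.1 (R 4.3.3, statmod 1.5.0). Probes above their array's median in at least 2 arrays were kept (31100), and the brightest kept probe stood for each gene (15246 genes). Symbols came from the platform annotation, with 30113 probes of 1 symbol, 8 of several and 17110 not listed. Group means were modelled over all arrays (lmFit, eBayes; 13 residual and 9.74 prior degrees of freedom), with two-sided tests and Benjamini-Hochberg adjustment within each of 23 contrasts at 0.05. Groups came from the sample titles. The fit was tested on simulated data. The members, the lists and the tests were chosen with earlier results of these data known. Every member was named; of each further list up to 4 genes with the smallest p were eligible, and MYC always. Alternatives changed the normalization, background, filter, probe choice, arrays in the fit, array weights, prior trend and replicate block, and left out each array in turn. Deviations of same-numbered arrays in different groups correlated at -0.0953 to 0.278 (111 pairs, median -0.00155), over 0.1 in 8 pairs, so not in every pair, and replicate numbers were not taken as pairs. The number of arrays limits the precision.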

Additional observations from a re-analysis of the deposited data

Results flagged for a closer look

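Each result here is a test of a difference between lines or between hours of a line difference that passed an adjusted p of 0.05. The groups hold 2 or 3 arrays, too few for the test of a single array standing apart.

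ODC1 in the shNDRG3 line relative to shGFP changed by -1.92 between 6 h and 24 h, the difference being 0.90 at 6 h and -1.03 at 24 h. AZIN1 under the same contrast changed by 0.97 on its brightest probe, with -0.18 at 6 h and 0.79 at 24 h. On its second probe the lines overlapped at 6 h. AMD1 under the same contrast changed by -0.70, with 0.47 at 6 h and -0.23 at 24 h, and its call was lost without any of 5 arrays.

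Between the knockdown lines AZIN1 was lower in shHIF-1A than in shNDRG3, with log2 differences of -0.52 at 6 h (adjusted p = 0.00961, lost without shNDRG3 6 h replicate 1, shNDRG3 6 h replicate 2 or shHIF-1A 6 h replicate 1, with values of -0.52, -0.52 and -0.48) and -0.45 on average over 6 h and 12 h. OAZ2 was lower in shHIF-1A than in shNDRG3, with -0.93 at 12 h (9.44 and 9.97 in shHIF-1A, against 10.34 and 10.94 in shNDRG3; adjusted p = 0.0172), which was lost without shNDRG3 12 h replicate 2 (-0.63) or shHIF-1A 12 h replicate 1 (-0.66). SMOX was higher in shHIF-1A than in shNDRG3 by 0.41 on average.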

How the results depend on the processing

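Of 177 member results, 0 changed their call without the filter on dim probes or with normexp correction, 2 with an intensity trend, 5 with the mean of a gene's probes, 17 with median-centred arrays, 23 with array weights, 24 with only the arrays compared and 25 on the signals as deposited; with 1 array left out, 4108 of 4248 were unchanged. The cause of these changes was not tested. The member counts below come without the share of all genes passing in the same fit. They are not read as results about the members. Counts of the 8 members that moved by over 1.5 times were as follows. On the signals as deposited: shNDRG3 average 3 (5 as reported), shNDRG3 at 12 h 1 (2) and shHIF-1A minus shNDRG3 at 6 h 0 (1). With median-centred arrays: shGFP 6 h 1 (2), shNDRG3 at 12 h 1 (2), shNDRG3 average 2 (5), shHIF-1A minus shNDRG3 0 at 6 h (1) and 1 on average (2). With the mean of probes: shHIF-1A minus shNDRG3 average 1 (2). With only the arrays compared: shGFP 12 h minus 6 h 5 (3), shNDRG3 at 12 h 4 (2), shHIF-1A minus shNDRG3 2 at 12 h (1) and 4 on average (2), within shNDRG3 24 h minus 12 h 1 (4) and 24 h minus 6 h 3 (5), change of the shHIF-1A difference 2 (0). With array weights: shGFP 12 h minus 6 h 5, shNDRG3 at 12 h 5, shHIF-1A minus shNDRG3 3 at 12 h and 4 on average, shNDRG3 24 h minus 12 h 2, change of the shHIF-1A difference 2. On the signals as deposited OAZ1 at 24 h minus normoxia turned to -0.30 (adjusted p = 0.026), with the median of all genes at -0.415.

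With 1 array left out, the counts ranged over 1 to 3 (shGFP 6 h), 4 to 6 (12 h), 5 to 7 (24 h), 1 to 3 (12 h minus 6 h) and 2 (24 h minus 12 h). They ranged over 3 to 5, 2 to 3, 1 to 4 and 4 for shHIF-1A at 3 h, 6 h, 12 h and on average, and over 2 to 3, 1 to 3, 3 to 4 and 3 to 6 for shNDRG3 at 6 h, 12 h, 24 h and on average. For shHIF-1A minus shNDRG3 they ranged over 0 to 1 at 6 h, 0 to 3 at 12 h and 1 to 4 on average. Within shHIF-1A the range was 3 to 4, and within shNDRG3 1 to 3 (12 h minus 6 h), 3 to 5 (24 h minus 12 h) and 5 to 7 (24 h minus 6 h). For the change of the line difference it was 0 to 3 (shHIF-1A) and 2 to 4 (shNDRG3). Leaving out 1 of 2 arrays leaves 1, which is assumed to vary like the other groups, so a lost call does not show that the array carried it.

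With the replicate number as a block, 175 of 177 member results kept their call; ODC1 at 12 h minus normoxia had an adjusted p of 0.0536, and shHIF-1A minus shNDRG3 at 12 h had 2 members called (1 without the block).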
